A study of Mus musculus with 6 samples.

Results

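Oxidative phosphorylation was described through 59 genes of its protein subunits, chosen by symbol and found in the deposited tables through their Ensembl identifiers, out of 41388 genes listed. Of these, 46 lie in the nucleus and 13 on mitochondrial DNA. By complex, the nuclear genes number 20 in complex I, 4 in complex II, 6 in complex III with cytochrome c, 7 in complex IV and 9 in complex V. The mitochondrial genes number 7, 0, 1, 3 and 2 in the same order. RNA was sequenced from foamy and non-foamy macrophages sorted from the aortic intima of C57BL/6 mice, 3 libraries each. Every library, in either group, came from ApoE -/- mice, which lack apolipoprotein E and develop plaques. The design gives 6 mice kept for 28 weeks on a diet abbreviated WD, the usual short form of Western diet, and does not give the mice behind each library. Live cells positive for CD64 and CD11b were called foamy when high in BODIPY493/503, a neutral lipid dye, and in side scatter, and non-foamy when low in both. Neither a wild-type group nor another diet was analysed here, and the labels give no age. Nothing in the labels says that the libraries of a group came from separate animals. The p-values therefore weigh group differences only against the scatter between these libraries, which may be technical in part.

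The respiratory chain sits in the inner mitochondrial membrane. Complex I oxidises NADH and complex II oxidises succinate; electrons then pass through ubiquinone to complex III, through cytochrome c to complex IV and finally to oxygen. Complexes I, III and IV pump protons out of the matrix, and complex V, the ATP synthase, makes ATP as protons return. Complex II is wholly nuclear-encoded, while the others combine nuclear subunits with subunits made inside the mitochondrion from its own DNA. In macrophages, inflammatory activation is known to lower respiration, and alternatively activated and lipid-oxidising cells are known to rely on it.

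Total counts in genes ran from 15628627 to 24619075 per library. Levels are given as CPM, counts scaled to a common library total and by TMM factors, which align libraries on the bulk of their genes. Macrophage marker genes (10 of 10 detected, among them Cd68, Csf1r and C1qa) summed to 22109 to 28332 CPM in foamy and 13348 to 22162 CPM in non-foamy libraries. These genes did not move together: 2 were higher in foamy libraries by the edgeR test (Cd68 and Mertk), 4 lower (Csf1r, Adgre1, Itgam and Mrc1), and their median log2 fold change was 0.05. Monocyte markers summed to 64.2 to 76.9 against 677 to 992 CPM, and 12 early response and heat shock genes, known to be induced during enzymatic dissociation, to 2149 to 2597 against 4649.7 to 7065 CPM. Of the 9 tested monocyte markers 6 were lower in foamy libraries by the edgeR test, and of the 12 early genes 11. Over all 11303 tested genes, 283 were called higher and 328 lower in foamy libraries, together 5.41%. Dendritic cell markers summed to 0.332 to 15.99 CPM in foamy and 33.1 to 249.9 CPM in non-foamy libraries, and most of their counts were Cd209a, the only one of the 5 tested, which was not called. T cell markers summed to 12.1 to 24.3 against 0.812 to 3.69 CPM; only Cd4 was tested, and it was called higher, while Cd3e had 1 count over all 6 libraries. Fibroblast markers, at 2.84 to 171 against 11.8 to 307 CPM, overlapped between groups. Sums of smooth muscle, endothelial, B cell, neutrophil and erythroid markers also overlapped and reached at most 40.0 CPM in any library, with the erythroid sum at or below 0.167 CPM. The neutrophil genes did not move together: of 3 tested by edgeR, 1 was called lower in foamy libraries. Another 1 was higher at an unadjusted p under 0.05 but was not called. The part of these differences in the values below was not tested. In sorted bulk RNA, fewer cells of a type and less RNA per cell cannot be told apart.

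The mitochondrial genes fell into a measured and an unmeasured set. The genes mt-Co2, mt-Atp8, mt-Atp6, mt-Co3 and mt-Nd4l, which encode subunits of complexes IV, V and I, had 0 counts in all 6 libraries, where 3 counts correspond to 0.122 to 0.192 CPM before the scaling by TMM, an upper limit that covers counting error only. Their neighbour mt-Nd3 had 12, 12 and 5 counts in foamy and 0, 8 and 11 in non-foamy libraries. On GRCm38 these 6 genes lie side by side on the mitochondrial chromosome, from position 7013 to 10173, while mt-Co1 before them and mt-Nd4 after them held 45769 to 121764 and 8000 to 20496 counts per library.

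The block coincides with a stretch of mitochondrial sequence copied into chromosome 1. In GENCODE M21, pseudogenes there carry the same letters: the transcript of Gm28661 matched that of mt-Co2 over 681 bases with 0 differences, and Gm28437 matched mt-Co3 over 783 bases with 0. Gm10925 matched mt-Atp6 and Gm10222 matched mt-Nd4l with 0 differences over 678 and 294 bases, and Gm28438 differed from mt-Nd3 at 1 of 345 bases. The first 60 bases of mt-Co2 and of 2 nuclear copies, and of mt-Nd3 and its copy, are shown because they are what a 50-base read would have had to tell apart; capitals mark bases that differ from the mitochondrial gene.
mt-Co2, chrM:7013-7072, plus strand: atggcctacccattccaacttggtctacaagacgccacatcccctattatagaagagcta
Gm28661, chr1:24615506-24615565, minus strand: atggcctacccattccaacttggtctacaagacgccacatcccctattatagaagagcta
Gm13341, chr2:22587903-22587962, minus strand: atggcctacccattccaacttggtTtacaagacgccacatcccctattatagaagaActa
mt-Nd3, chrM:9459-9518, plus strand: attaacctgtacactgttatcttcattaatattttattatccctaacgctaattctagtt
Gm28438, chr1:24613060-24613119, minus strand: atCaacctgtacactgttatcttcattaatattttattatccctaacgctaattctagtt

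To measure this for every gene, each transcript was divided into all its windows of 50 bases, the read length, and windows also present in a transcript of another, non-overlapping gene were counted. The share was 100% in mt-Co2, 99.9% in mt-Co3, 99.5% in mt-Atp6, 98.8% in mt-Nd4l and 98.0% in mt-Nd3. It was 62.2% in mt-Nd4 and 51.1% in mt-Co1 at the edges of the block, 8.19% in mt-Nd2, 7.61% in mt-Nd5, and 0 in mt-Nd1, mt-Nd6 and mt-Cytb. For mt-Atp8 it was also 0, but the count covers annotated transcripts only. On chromosome 1, 233 bases lie between the copies of its neighbours mt-Atp6 and mt-Co2. Genes annotated in those bases were not looked up, and the genome sequence there was not used here. The chromosome 1 pseudogenes Gm28661, Gm28437, Gm10925, Gm28438, Gm28439, Gm29216 and Gm10222 held 1, 3, 1, 1, 1, 3 and 0 counts over all 6 libraries. How the authors treated reads that map to several places is not given in the sources used here. These counts of 0 are therefore given as listed and are not read as absence of the RNA. The part of the shared sequence in them, and in the levels of mt-Co1 and mt-Nd4, was not tested.

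**Figure D1:**
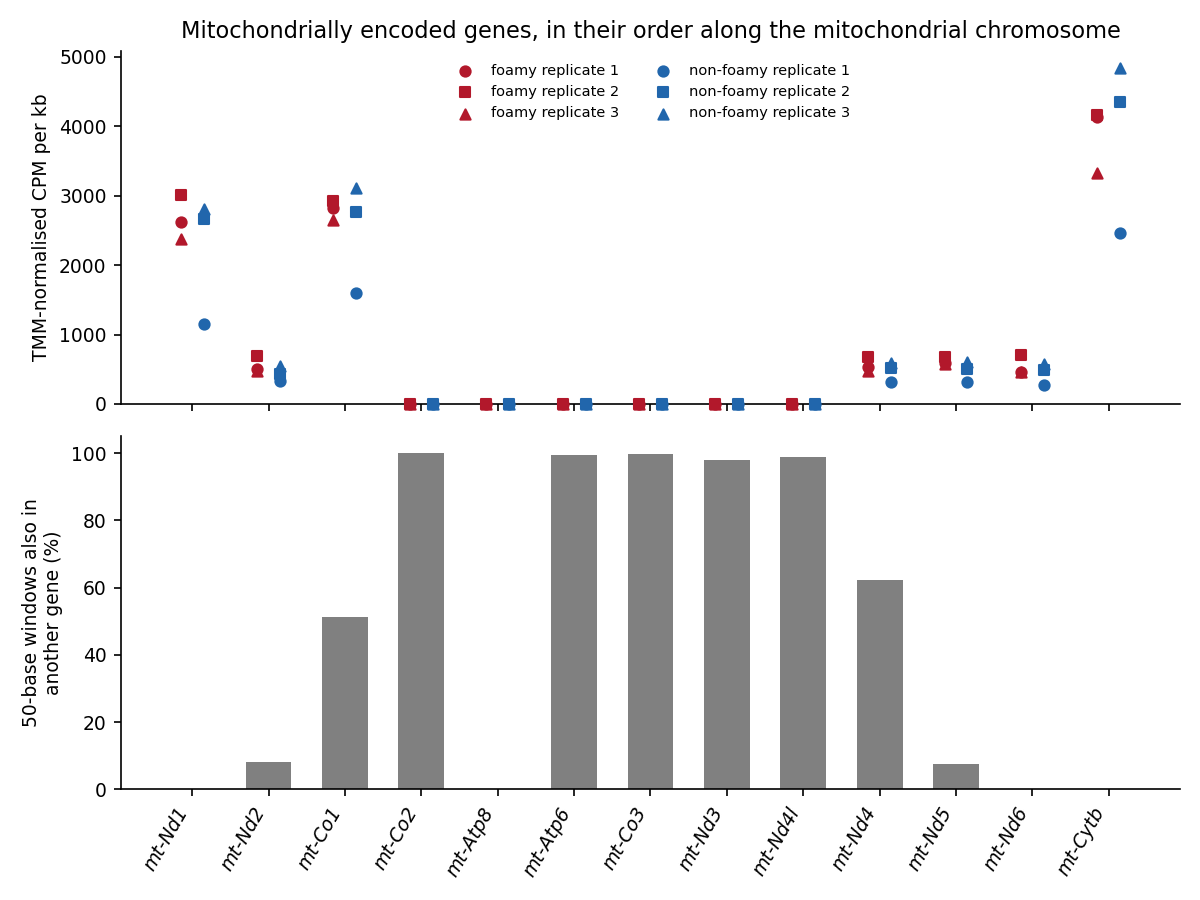
Top, level of each mitochondrially encoded gene in each library, in CPM per kilobase of the gene's length, with 3 foamy (red) and 3 non-foamy (blue) libraries. Bottom, percent of the gene's 50-base windows that occur in a transcript of another gene. The genes from mt-Co2 to mt-Nd4l lie at or near 0 in all 6 libraries, and 5 of these 6 share at least 98.0% of their windows.

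Among the 7 mitochondrial genes that could be tested, none passed the edgeR test across all genes, in which 611 of 11303 genes (5.41%) were called at an adjusted p of 0.05. A positive log2 fold change means a higher level in foamy libraries, and the median was 0.27, beside -0.04 over all tested genes. With total counts as the only scaling the median was 0.03, beside -0.31 over all tested genes. Of the 7, 0 had an unadjusted p under 0.05. All 95% intervals lay within a 2-fold change in either direction, which held for 24.3% of all tested genes. As a share of all counts, the mitochondrial genes together took 1.23, 1.49 and 1.13% across the foamy libraries and 0.933, 1.52 and 1.63% across the non-foamy ones, so the groups overlapped. Genes listed at 0 add nothing to this share, so it is not read as the whole mitochondrial part.

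mt-Cytb, cytochrome b of complex III, had the highest level per length, at 3870.5 ± 472 CPM per kb in foamy and 3885 ± 1253 in non-foamy libraries (mean ± SD, n = 3). It was read at 4725, 4755 and 3804 CPM across the foamy libraries (replicates 1 to 3) and 2822, 4974 and 5539 CPM across the non-foamy ones, and the foamy values lay inside the non-foamy range (log2 fold change -0.01 ± 0.24 SE, adjusted p = 0.99 by edgeR, interval -0.53 to 0.52). mt-Co1, the catalytic subunit of complex IV, stood at 4350.4, 4507 and 4086 CPM across the foamy libraries (replicates 1 to 3) and 2479, 4280.3 and 4793 CPM across the non-foamy ones (log2 fold change 0.16 ± 0.23 SE, adjusted p = 0.79 by edgeR, interval -0.34 to 0.67). Its foamy values were again inside the non-foamy range. mt-Nd1, a membrane subunit of complex I near the ubiquinone site, stood at 2506, 2882 and 2278 CPM across the foamy libraries (replicates 1 to 3) and 1108, 2551 and 2684 CPM across the non-foamy ones (log2 fold change 0.27 ± 0.29 SE, adjusted p = 0.70 by edgeR, interval -0.36 to 0.90). Its groups overlapped as well, although foamy replicate 2 was the highest of the 6 libraries. These 3 genes held 78.9 to 83.6% of the counts listed for mitochondrial messengers in each library. That total lacks the messengers listed at 0, so the share among all mitochondrial messengers is not known.

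The other complex I genes were lower per length. mt-Nd2 stood at 519.9, 709.7 and 500.1 CPM against 339, 443 and 560.4 CPM (foamy replicates 1 to 3 against non-foamy replicates 1 to 3; interval of the log2 fold change -0.12 to 0.85). mt-Nd4 stood at 739, 932 and 652 CPM against 433, 710.0 and 807 CPM (interval -0.27 to 0.78), and mt-Nd5 at 1071, 1233 and 1039 CPM against 579, 910.1 and 1108 CPM (interval -0.14 to 0.86). All 3 encode antiporter-like membrane subunits through which complex I pumps protons. mt-Nd6, the only messenger on the other strand, stood at 241, 369 and 241 CPM against 139.9, 254 and 297 CPM (interval -0.31 to 0.91). It overlaps mt-Nd5 by 14 bases, and the strand setting of the counting is not given in the sources used here. Per length these 4 genes averaged 493 to 543 CPM per kb over all libraries, with spreads that overlap, against 2439.6 for mt-Nd1, 2642 for mt-Co1 and 3878 for mt-Cytb. Counted instead per 1000 windows that no other gene shares, a scale chosen after the data were seen, mt-Co1 came to 5585, above mt-Cytb at 4051. On that scale mt-Nd4 came to 1419, above mt-Nd5 at 604. The scale divides all counts of a gene by its unshared windows. It therefore holds only if shared windows gave no counts, which was not tested.

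In all 7 genes the lowest of the 6 values was that of non-foamy replicate 1. That library was also lowest in 33 of the 46 nuclear genes (71.7%), beside 20.7% of all tested genes. It had the smallest total count, the highest TMM factor (1.19) and the lowest summed macrophage markers (13348 CPM). Foamy replicate 1 was highest in 21 nuclear genes (45.7%), beside 13.2% of all tested genes. Foamy replicate 2 was highest in 13 nuclear (28.3%) and 5 mitochondrial genes, beside 14.8%. Non-foamy replicate 3 was highest in 8 nuclear (17.4%) and 2 mitochondrial genes, beside 18.8%. Without non-foamy replicate 1, the median log2 fold change fell to 0.03 in the mitochondrial and 0.14 in the nuclear genes. The part of this library's other features in these values was not tested.

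**Figure D2:**
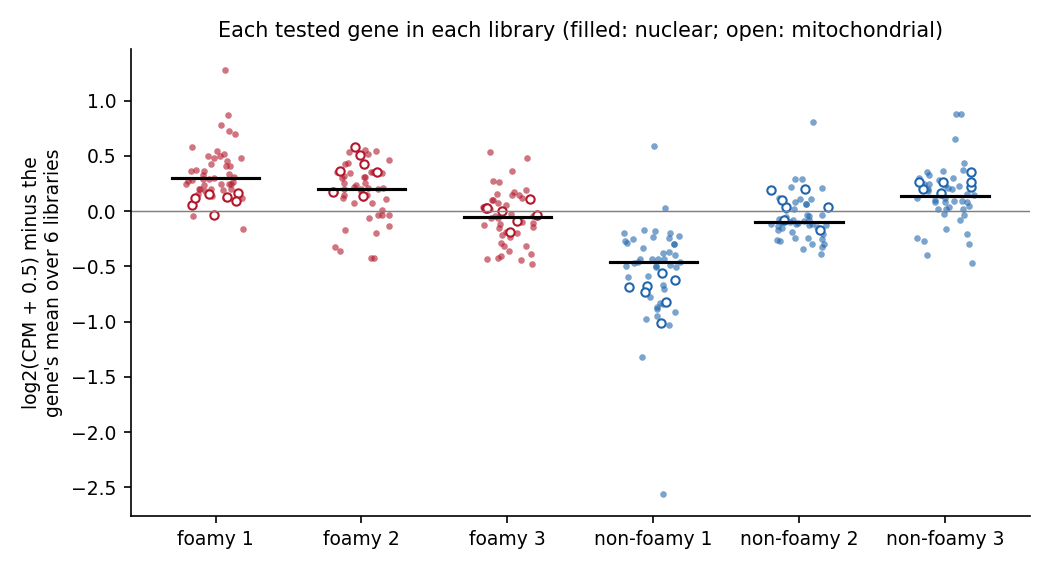
Each point is 1 tested gene in 1 library, as log2(CPM + 0.5) minus that gene's mean over the 6 libraries; filled points are nuclear and open points mitochondrial genes, and bars are the median of the nuclear genes. Non-foamy replicate 1 has a median of -0.46, while non-foamy replicate 3, at 0.13, lies above foamy replicate 3, at -0.05.

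All 46 nuclear genes were detected and passed the filter on low counts. None was called, although 41 of 46 had a log2 fold change above 0, beside 5336 of all 11303 tested genes. Without non-foamy replicate 1 this held for 31 of 46. With all libraries the median of the nuclear genes was 0.28, or 0.32 above the median of all tested genes. An unadjusted p under 0.05 was found in 8 genes (17.4%), all higher in foamy libraries, beside 8.63% of all tested genes in that direction and 18.7% in either. The 3 foamy values lay above the 3 non-foamy values in 9 genes (19.6%, beside 12.4% of all tested genes) and below them in 0 (beside 13.3%). With total counts as the only scaling these numbers were 2 (Ndufa9 and Atp5a1) and 1 (Uqcrfs1), beside 6.68% and 21.3% of all tested genes, so the absence of overlap given below for other genes holds on the TMM scale. The 95% interval stayed within a 2-fold change in 32 of 46 genes (69.6%). On total counts alone, all tested genes had a median of -0.31 in place of -0.04, and that of the nuclear genes was 0.03, so that 24 of 46 lay above 0; relative to all genes the median was 0.34.

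**Figure D3:**
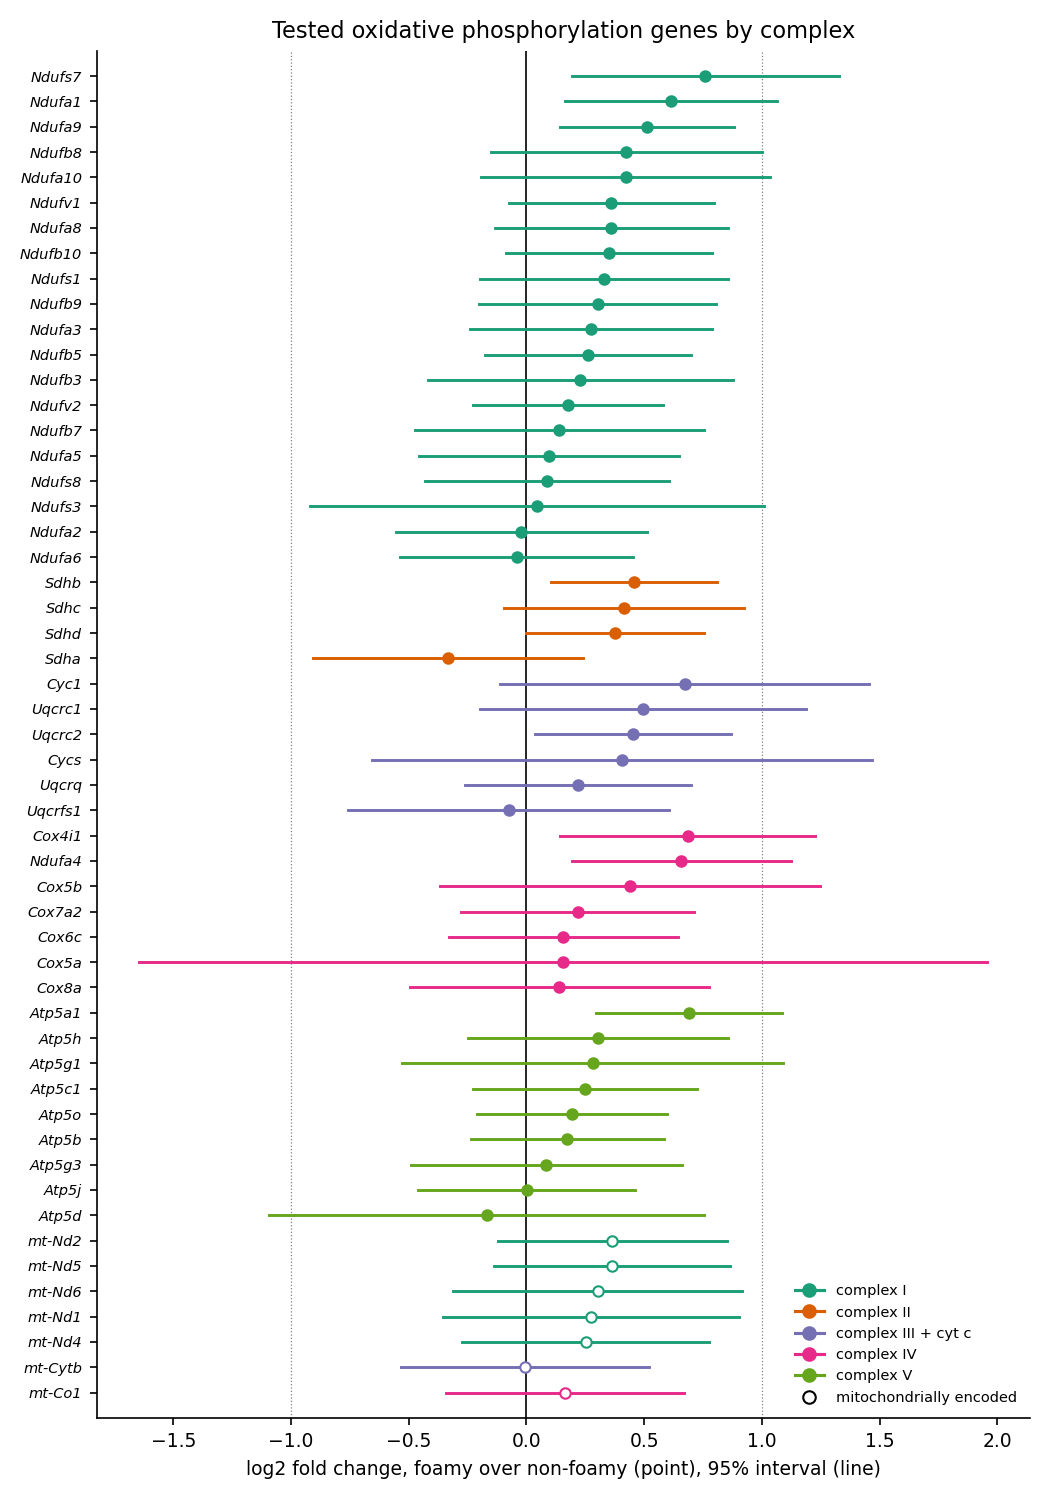
Log2 fold change, foamy over non-foamy (point), with its 95% interval (line) for the 53 tested genes, grouped and coloured by complex; dotted lines mark a 2-fold change. The points run from -0.33 for Sdha to 0.76 for Ndufs7, and no gene passed the test.

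Complex I, the largest complex, was followed through 20 nuclear genes, whose counts summed to 4146, 3892 and 2999.9 CPM across the foamy libraries and 2486, 2984 and 3634 CPM across the non-foamy ones. The groups overlapped, and the median log2 fold change was 0.29. Ndufs7 (chromosome 10, 80249121 to 80256794 on GRCm38), an iron-sulfur subunit that hands electrons to ubiquinone, had the largest difference, at 210.0, 210.3 and 167 CPM across the foamy libraries (replicates 1 to 3) and 74.4, 115 and 157 CPM across the non-foamy ones. Every foamy value lay above every non-foamy value (log2 fold change 0.76 ± 0.26 SE, adjusted p = 0.13 by edgeR, interval 0.19 to 1.33). It was called without a filter on low counts (log2 fold change 0.84) and without non-foamy replicate 3 (1.06). Ndufa1, a small accessory subunit, had the highest level per length, at 648 ± 114 CPM per kb in foamy and 423 ± 76.1 in non-foamy libraries, and read 280.0, 314 and 220.0 CPM against 152, 166 and 213 CPM. Its groups did not overlap either, nor did those of the accessory subunit gene Ndufa9, at 274, 229 and 254 CPM against 175, 185 and 171 CPM (adjusted p = 0.12 and 0.11 by edgeR). Ndufa9 was named after its values were seen. At the other end, the accessory subunit gene Ndufa6 stood at 233, 245 and 159.8 CPM against 181, 201 and 275 CPM and its groups overlapped fully (log2 fold change -0.04 ± 0.23 SE, adjusted p = 0.96 by edgeR, interval -0.54 to 0.45). Of the genes that bear the redox centres, Ndufv1, which binds NADH, stood at 111, 88.0 and 109.6 CPM against 76.9, 88.3 and 75.1 CPM, Ndufv2 at 423, 409.7 and 312 CPM against 312, 320.5 and 380.0 CPM, Ndufs1 at 56.8, 47.6 and 73.5 CPM against 53.5, 44.1 and 44.0 CPM and Ndufs8 at 325, 231 and 189.9 CPM against 183, 238 and 280.2 CPM. Their log2 fold changes were 0.36, 0.18, 0.33 and 0.09, with overlapping groups, and these 4 were also named after their values were seen. Over the remaining nuclear genes of complex I, log2 fold changes ran from -0.02 for Ndufa2 to 0.42 for Ndufb8. Levels per length ranged from 6.58 CPM per kb for Ndufs1 to 535 for Ndufa1, although the complex holds these subunits in equal number. The length used is that of all annotated exons together, which is 8086 bases in Ndufs1 and 419 in Ndufa1.

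Complex II, succinate dehydrogenase, also works in the citrate cycle. Its 4 genes summed to 1408, 1377 and 1301 CPM across the foamy libraries and 1024, 1093 and 1112 CPM across the non-foamy ones, and it was the only complex whose sums did not overlap between groups. As a share of all counts, however, its groups overlapped, with 0.122, 0.133 and 0.117% across the foamy libraries and 0.121, 0.118 and 0.115% across the non-foamy ones. Sdhb (chromosome 4, 140961203 to 140979193), the iron-sulfur subunit, stood at 708, 642 and 589.8 CPM across the foamy libraries (replicates 1 to 3) and 463, 456 and 493 CPM across the non-foamy ones (log2 fold change 0.46 ± 0.16 SE, adjusted p = 0.14 by edgeR, interval 0.10 to 0.81). Sdhd, a membrane anchor and the gene with the highest level per length here, stood at 403, 428 and 397 CPM against 273, 311 and 363 CPM (log2 fold change 0.38 ± 0.17 SE, adjusted p = 0.27 by edgeR, interval -0.00206 to 0.75). Sdhc, the other anchor, stood at 182, 204 and 178 CPM against 93.5, 168 and 162 CPM, again with all foamy values above the non-foamy ones (edgeR adjusted p = 0.39). Sdha, the flavoprotein that oxidises succinate, differed in sign from its partners, at 115, 103 and 136 CPM across the foamy libraries (replicates 1 to 3) and 195, 158 and 93.4 CPM across the non-foamy ones. Its groups overlapped, because non-foamy replicate 3 was the lowest of the 6 libraries (log2 fold change -0.33 ± 0.26 SE, adjusted p = 0.57 by edgeR, interval -0.91 to 0.24). Sdha was 1 of 5 nuclear genes with a log2 fold change below 0 and the lowest of them. The difference between Sdha and the other 3 genes was not tested.

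**Figure D4:**
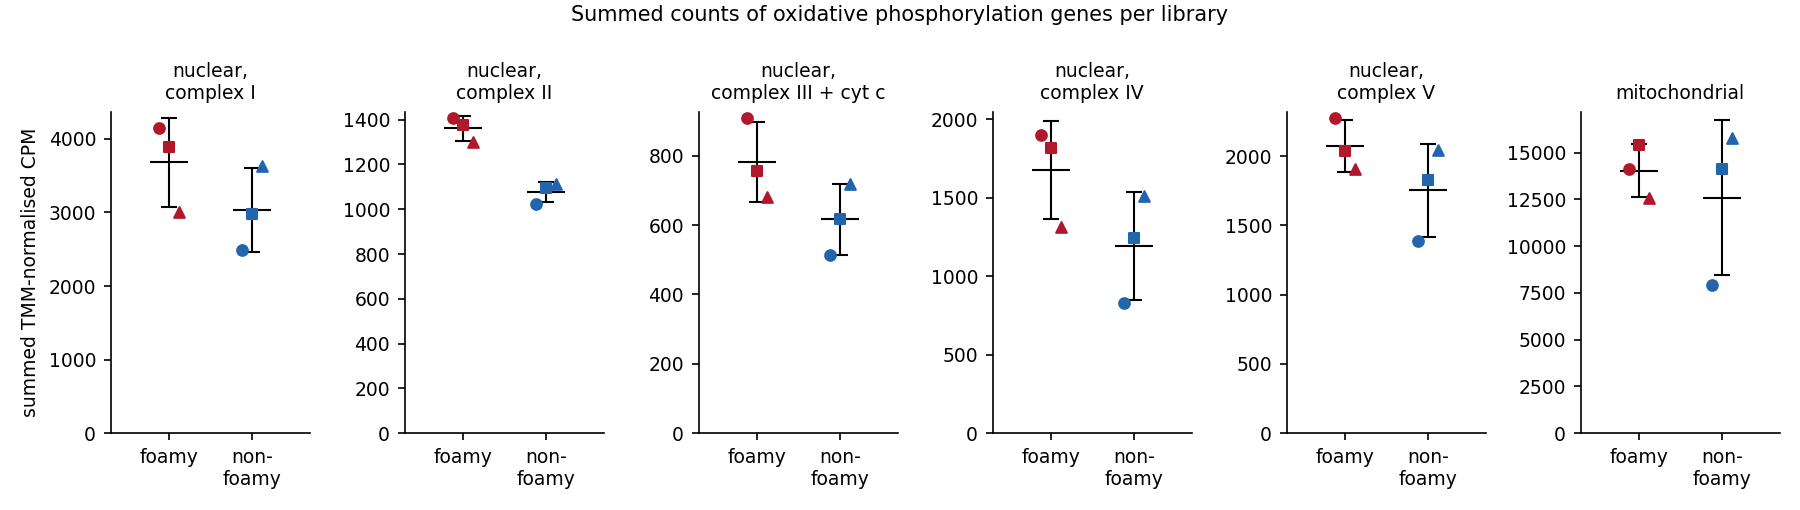
Summed CPM of the nuclear genes of each complex, and of the mitochondrial genes, in each library (circles, squares and triangles are replicates 1 to 3), with mean and SD over 3 libraries; the axes start at 0 and differ between panels. In complex II the foamy sums (1301 to 1408) lie above the non-foamy sums (1024 to 1112), and in the other panels the groups overlap.

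Complex III and cytochrome c were represented by 6 nuclear genes, summing to 908, 756 and 682 CPM across the foamy libraries and 514, 616 and 717 CPM across the non-foamy ones. Cyc1, the haem-bearing cytochrome c1, had the largest difference, at 52.7, 33.0 and 27.9 CPM across the foamy libraries (replicates 1 to 3) and 13.8, 27.1 and 30.4 CPM across the non-foamy ones. The groups overlapped, with foamy replicate 3 below non-foamy replicate 3 (log2 fold change 0.67 ± 0.36 SE, adjusted p = 0.36 by edgeR, interval -0.11 to 1.46). Uqcrq, a small subunit, was the most abundant per length (195 ± 45.2 CPM per kb in foamy and 168 ± 31.2 in non-foamy libraries) and read 395, 415 and 262 CPM against 289, 260.4 and 371 CPM (interval -0.26 to 0.70). Uqcrfs1, the Rieske iron-sulfur protein, stood at 22.0, 14.8 and 19.6 CPM against 16.6, 20.0 and 22.8 CPM (log2 fold change -0.07 ± 0.31 SE, adjusted p = 0.95 by edgeR, interval -0.76 to 0.61). Uqcrc2, a core subunit named after its values were seen, had groups that did not overlap, at 216, 177 and 225 CPM against 127, 159 and 165 CPM (edgeR adjusted p = 0.22). Cycs, the soluble electron carrier, was lowest, at 2.03 CPM per kb over all libraries, with 9.63, 6.52 and 7.44 CPM against 3.90, 6.77 and 7.12 CPM. Of its 50-base windows 26.1% also occur in other genes, and the part of this in its level was not tested.

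Complex IV, cytochrome c oxidase, was represented by 7 nuclear genes that summed to 1899, 1815 and 1316 CPM across the foamy libraries and 829, 1246 and 1509 CPM across the non-foamy ones. Cox4i1, the widely expressed form of the subunit named COX IV, had the highest level per length and the largest difference, at 987, 914 and 678 CPM across the foamy libraries (replicates 1 to 3) and 362, 537 and 705 CPM across the non-foamy ones. Foamy replicate 3 lay below non-foamy replicate 3, so the groups overlapped (log2 fold change 0.69 ± 0.25 SE, adjusted p = 0.15 by edgeR, interval 0.14 to 1.23). It was called only without a filter on low counts (log2 fold change 0.76). Cox5a, which encodes another subunit of the complex, varied most between libraries of a group, at 91.7, 27.9 and 38.5 CPM against 5.96, 66.4 and 69.5 CPM. Its interval, -1.64 to 1.96, was the widest of the 53 and reached past a 2-fold change in both directions. The remaining Cox genes, Cox5b, Cox6c, Cox7a2 and Cox8a, had log2 fold changes of 0.44, 0.16, 0.22 and 0.14, with overlapping groups. Cox5a, the remaining Cox genes and Ndufa4 were named after their values were seen.

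Ndufa4 carries a complex I name but its protein is now placed in complex IV. It stood at 259, 269 and 169 CPM across the foamy libraries (replicates 1 to 3) and 132, 152 and 158 CPM across the non-foamy ones, without overlap (log2 fold change 0.66 ± 0.21 SE, adjusted p = 0.11 by edgeR, interval 0.19 to 1.12). AA467197 (chromosome 2, 122636986 to 122641191), also known as Nmes1, encodes a small paralogue of NDUFA4 that takes its place in complex IV of inflamed cells. It was lower in foamy libraries, at 19.3, 21.7 and 30.4 CPM across the foamy libraries (replicates 1 to 3) and 42.2, 78.9 and 93.1 CPM across the non-foamy ones (log2 fold change -1.59 ± 0.32 SE, adjusted p = 0.016 by edgeR, interval -2.29 to -0.88). Of 10 tested genes on a list of tissue isoforms and modulators of the chain, it was the only one called. Per kilobase, Ndufa4 exceeded AA467197 by 32.8, 30.3 and 13.6 times in foamy replicates 1 to 3 and by 7.63, 4.72 and 4.15 times in non-foamy replicates 1 to 3. This ratio was chosen after the values were seen and was not tested. The call of AA467197 was lost when foamy replicate 1 was left out (log2 fold change -1.45), foamy replicate 2 (-1.52), non-foamy replicate 2 (-1.51) or non-foamy replicate 3 (-1.34). The summed monocyte, dendritic cell and early response markers were also lower, and the summed T cell markers higher, in the foamy libraries, as given above, and their part in this difference was not tested.

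**Figure D5:**
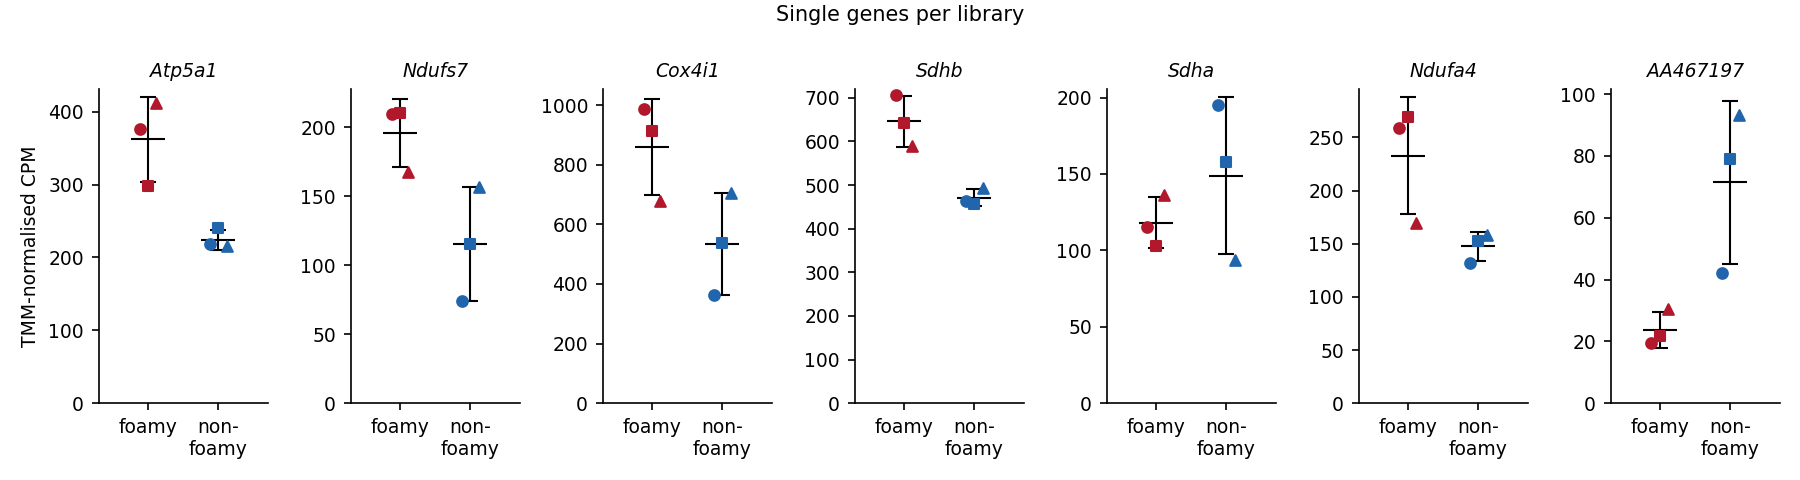
CPM of 6 members and of AA467197 in each library (circles, squares and triangles are replicates 1 to 3), with mean and SD over 3 libraries; each axis starts at 0. AA467197 is lower in all 3 foamy libraries (19.3 to 30.4 CPM) than in any non-foamy library (42.2 to 93.1 CPM), while Atp5a1, Ndufs7, Sdhb and Ndufa4 are higher in all 3; only AA467197 passed the test.

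Complex V was represented by 9 nuclear genes that summed to 2278, 2036 and 1908 CPM across the foamy libraries and 1389, 1828 and 2047 CPM across the non-foamy ones. Atp5a1, the alpha subunit of the catalytic head, came nearest to the threshold of all 53 tested genes. It stood at 376, 298 and 412 CPM across the foamy libraries (replicates 1 to 3) and 218, 240.4 and 215 CPM across the non-foamy ones, with every foamy value above every non-foamy one (log2 fold change 0.69 ± 0.18 SE, adjusted p = 0.051 by edgeR, interval 0.29 to 1.09). It was called under 6 of 15 alternatives, with adjusted p from 0.012 by DESeq2 to 0.19 over all of them, so its call rests on the choice of fit. Atp5b, the beta subunit that pairs with it in the head, stood at 274, 243 and 225 CPM against 184, 218 and 256 CPM and overlapped (log2 fold change 0.17 ± 0.19 SE, adjusted p = 0.71 by edgeR); it was named as the partner after its values were seen. Atp5c1, the gamma subunit that turns inside the head, had the highest level per length (331 ± 11.7 CPM per kb in foamy and 279 ± 78.3 in non-foamy libraries) and read 656, 631 and 611 CPM against 359.9, 615 and 622 CPM (interval -0.23 to 0.72). Atp5d, the delta subunit of the rotor, stood at 107, 48.8 and 48.6 CPM against 36.8, 71.2 and 122 CPM, with a wide interval of -1.09 to 0.76. The peripheral stalk genes Atp5h, Atp5j and Atp5o had log2 fold changes of 0.30, 0.00105 and 0.19, with overlapping groups.

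The membrane ring of the ATP synthase is built from the c subunit, whose mature protein is the same from Atp5g1, Atp5g2 and Atp5g3. Atp5g3 read 119, 97.7 and 66.9 CPM against 66.1, 94.9 and 107 CPM and Atp5g1 13.3, 15.8 and 11.9 CPM against 8.61, 11.4 and 13.7 CPM. Atp5g2, which is not among the 59 genes, read 0.617, 1.06 and 0.378 CPM against 0.162, 0.660 and 1.22 CPM. Per kilobase, Atp5g3 held 92.1 to 94.7% of the 3 genes' level in every library, Atp5g1 4.71 to 7.25% and Atp5g2 0.302 to 1.39%. These shares depend on the length used, that of all annotated exons together, which is 4912 bases in Atp5g1 and 2181 in Atp5g3. The order was the same in foamy and non-foamy libraries. Of shared sequence, whose part in this order was not tested, 36.7% of the windows of Atp5g2 and 11.1% of those of Atp5g1 occur in other genes, and 0% of those of Atp5g3. Neither tested fold change of Atp5g1 or Atp5g3 passed the test (0.28 and 0.08).

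Genes around the respiratory chain were read from lists chosen by function. Their counts stand beside 18.7% of all tested genes with an unadjusted p under 0.05, 5.41% called and a median of -0.04. None of 33 other subunit genes was called, and 0 had an unadjusted p under 0.05 (median 0.16); the smallest p was that of Ndufa11 of complex I, at 129, 131 and 97.9 CPM against 82.8, 87.8 and 116 CPM. Of 47 assembly factors 45 were tested and 0 called by edgeR, with 2 (4.44%) at an unadjusted p under 0.05 (median 0.04). Coa3, a complex IV factor, had the smallest p, at 323, 366 and 262 CPM against 196, 206 and 246 CPM. Of 30 tested genes for mitochondrial DNA and RNA upkeep 0 were called, with 2 (6.67%) at an unadjusted p under 0.05 (median 0.11). Hsd17b10, a subunit of the enzyme that trims mitochondrial transfer RNA, came nearest, at 163, 141 and 139 CPM against 74.1, 94.8 and 103 CPM (log2 fold change 0.70 ± 0.20 SE, adjusted p = 0.068 by edgeR), and DESeq2 called it. Among 20 carriers, porins and cristae proteins 0 were called and 1 had an unadjusted p under 0.05, Slc25a5, an ADP/ATP carrier, at 780.1, 684 and 741 CPM against 486, 576 and 608 CPM (list median 0.10).

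The mitochondrial ribosome translates the 13 mitochondrial messengers. Of 75 tested genes of its proteins 57 had a log2 fold change above 0 (median 0.22), beside 5336 of all 11303 tested genes. Of the 75, 13 (17.3%) had an unadjusted p under 0.05 by edgeR, and 1 was called. All 13 were higher in foamy libraries, beside 8.63% of all tested genes in that direction and 18.7% in either. The 1 called gene, beside 5.41% of all tested genes called, was Mrpl44. Its level was 33.2, 41.0 and 30.3 CPM across the foamy libraries (replicates 1 to 3) and 10.5, 18.2 and 7.01 CPM across the non-foamy ones (log2 fold change 1.55 ± 0.37 SE, adjusted p = 0.034 by edgeR). Its call was lost on total counts alone (log2 fold change 1.29). It was also lost on leaving out 1 library, whether foamy 1 (1.60), foamy 2 (1.43), foamy 3 (1.65), non-foamy 1 (1.47) or non-foamy 3 (1.29). The mitochondrial ribosomal RNA gene mt-Rnr2 stood at 4587, 5329 and 3044 CPM against 3937, 4610.2 and 5876 CPM and overlapped between groups. Among the nuclear regulators, 8 of 9 were tested, with a median of -0.64. Myc, a transcription factor that drives growth and mitochondrial genes among many others, was the only one called, and it was lower in foamy libraries, at 42.6, 31.6 and 35.5 CPM across the foamy libraries (replicates 1 to 3) and 73.2, 75.3 and 62.7 CPM across the non-foamy ones (log2 fold change -0.94 ± 0.23 SE, adjusted p = 0.034 by edgeR). Among the fits without a block, the call of Myc was lost without a filter (-0.84) and on leaving out foamy 1 (-1.06), foamy 2 (-0.84), foamy 3 (-0.92), non-foamy 1 (-0.92) or non-foamy 2 (-0.89). Ppargc1a, a coactivator of mitochondrial biogenesis, had 12 counts over all 6 libraries.

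Nuclear genes of the chain are known targets of the factors NRF1, GABP, which belongs to the ETS family, and YY1. RefSeq promoter windows on GRCm38.p6, from 250 bases before to 50 after the start, were matched by symbol for 36 of the 46 nuclear genes, in 40 windows. An ETS core, CCGGAAG on either strand, stood in 8 of 40 windows (20.0%), beside 8.86% of all 32851 windows. A YY1 core, AAGATGGC on either strand, stood in 5 windows (12.5%), beside 2.75%. These letters include ATG, a start codon, and the windows reach 50 bases past the start. How many of the matches lie at a coding start was not tested. The palindrome bound by NRF1 stood in 1, that of Uqcrc1, beside 0.971% of all windows. The end of the ETS core and the start of the YY1 core share the letters AAG, and in the 1 window that held both, that of Atp5j, they did not overlap. A match is a description of the sequence only. Sdhb and Ndufs7, whose foamy and non-foamy values did not overlap on the TMM scale, each carry 1 of these cores. Of the other nuclear genes without overlap, Ndufa9 and Sdhd carry a core and Ndufa1 and Ndufa4 carry none. Sdhc, Uqcrc2 and Atp5a1 had no matched window. A link between core and level was not tested. The windows of Sdhb and Ndufs7 are printed with the core in capitals.
Sdhb, chr4:140961021-140961320, plus strand: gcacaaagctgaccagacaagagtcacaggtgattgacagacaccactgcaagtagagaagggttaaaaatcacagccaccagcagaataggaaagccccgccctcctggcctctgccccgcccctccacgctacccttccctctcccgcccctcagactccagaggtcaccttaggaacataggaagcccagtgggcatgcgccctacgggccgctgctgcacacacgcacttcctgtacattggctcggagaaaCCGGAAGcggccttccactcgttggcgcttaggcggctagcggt
Ndufs7, chr10:80249199-80249498, plus strand: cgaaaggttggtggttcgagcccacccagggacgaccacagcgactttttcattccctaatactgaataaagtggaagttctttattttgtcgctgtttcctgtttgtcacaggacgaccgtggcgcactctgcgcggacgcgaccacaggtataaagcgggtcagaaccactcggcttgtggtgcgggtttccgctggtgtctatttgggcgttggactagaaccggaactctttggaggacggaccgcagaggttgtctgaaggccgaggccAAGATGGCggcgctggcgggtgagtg
Among genes with the same core the fold changes differed: of the genes with an ETS core, Sdhb had a log2 fold change of 0.46 and Ndufs8 of 0.09, and of those with a YY1 core, Ndufs7 had 0.76 and Atp5j 0.00105.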

How the data were processed

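RNA of 3 foamy and 3 non-foamy libraries was read as single 50-base reads from SMARTer cDNA amplified for 12 cycles, per the labels' protocols, which name no molecular identifiers. Alignment and counting are given only as names in the submitters' processing notes: STAR (2.0.4b), Subread and featureCounts (1.4.5), on GRCm38. The deposited counts are whole reads per gene. The authors' deposited CPM equal the count divided by the library's total in genes and scaled to a common total. The deposited RPKM equal that CPM per kilobase; both were only checked, to 1e-06. Symbols and classes came from GENCODE M21, which names 40340 of 41388 identifiers. Coordinates are those of the deposited tables, and 42 of 59 members have the same start and end in M21.

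Groups were compared by the robust quasi-likelihood F-test of edgeR 4.0.16 in R 4.3.3, after filterByExpr and TMM, adjusted by Benjamini-Hochberg over 11303 genes, threshold 0.05. Fold changes are foamy over non-foamy, the SE is the log2 fold change over the square root of F, and intervals are 95%. The procedure was also run on simulated data, with planted changes of 2-fold or more and the scatter estimated by the fit itself. That run does not show how often smaller changes would be found, and all fold changes fitted for members were smaller. Alternatives included RLE, upper-quartile and no factors, DESeq2 1.42.0, limma-voom (3.58.1), filters, a replicate block and each library left out. Members, lists and tests were chosen with earlier results of these data known. Named members were all mitochondrial genes, the highest level and the largest positive and negative change in each complex, and the c subunit genes; in lists, called genes or the smallest p. Others are said to be named after their values were seen. No promoter window was matched for Ndufa2, Ndufb9, Ndufs1, Sdhc, Uqcrc2, Uqcrq, Cyc1, Cox4i1, Cox6c and Atp5a1.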

Additional observations from a re-analysis of the deposited data

How the results depend on the processing

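The number of genes called was 611 and became 1163 by DESeq2, 391 with the replicate block and 271 to 579 without any 1 library. The nuclear members called went from 0 to 1, Atp5a1, with upper-quartile factors, DESeq2, limma-voom, the stricter filter and a fit without the mitochondrial chromosome (where mitochondrial genes have no value). They went to 3 (Ndufs7, Cox4i1 and Atp5a1) without a filter and ran from 0 to 1 without 1 library (Ndufs7, without non-foamy replicate 3). No mitochondrial member was called under any alternative run. With total counts only, the nuclear median moved from 0.28 to 0.0272 and the mitochondrial median from 0.27 to 0.0344. Without 1 library, the nuclear median ran from 0.139 to 0.457 and the mitochondrial median from 0.0349 to 0.493.

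Of the lists, nuclear regulators had 2 calls (Gabpb1 and Myc) with total counts only and by DESeq2, and 0 without a filter or with the replicate block (Myc at -0.95, adjusted p = 0.099 by edgeR); without 1 library they had 0 to 1. The mitochondrial ribosome had 0 with total counts only, 2 (Mrpl4 and Mrpl44) by DESeq2 and 0 to 1 without 1 library. The DNA and RNA list had 1 by DESeq2, and isoforms and modulators 0 to 1 without 1 library.

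Signs of log2 fold changes near 0, none called, turned as follows. With total counts only they were -0.0414 for Uqcrq, -0.00515 for Atp5c1, -0.176 for Atp5g3 and -0.0847 for mt-Co1. Without a filter they were 0.0460 for Ndufa6, 0.0200 for Uqcrfs1 and 0.0713 for mt-Cytb. For mt-Cytb they were also 0.0259 with upper-quartile factors, 0.0406 by limma-voom and 0.0437 with the replicate block. Without 1 library the ranges were -0.110 to 0.287 for Atp5g3, -0.197 to 0.0820 for Uqcrfs1, -0.649 to 0.345 for Atp5d, -0.165 to 0.166 for Ndufa6, -0.250 to 0.195 for mt-Cytb, -0.0369 to 0.493 for mt-Nd1 and -0.0753 to 0.363 for mt-Co1. The cause of these changes was not tested. Same-numbered libraries did not deviate together (Pearson r -0.0706 to -0.0227 over 11303 genes, and 0 of 6 libraries correlated best with their own number). The labels do not say whether they share mice, and these correlations cannot settle it with so few libraries. Genes with 0 counts have no measured level; for the others, replicate scatter was far above counting error (chi-square per degree of freedom 50.7 to 143 between libraries of a group).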

Other observations

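Further genes of the isoform and modulator list, named after their values were seen, did not pass the edgeR test. Ucp2, an inner membrane carrier of the uncoupling protein family and abundant in macrophages, stood at 1495, 1251 and 1469.8 CPM across the foamy libraries (replicates 1 to 3) and 609, 1163 and 1031 CPM across the non-foamy ones (log2 fold change 0.59 ± 0.23 SE, adjusted p = 0.19 by edgeR). All 3 foamy values lay above the non-foamy ones. Cox6a2, the muscle form of a complex IV subunit, was low in every library, at 10.7, 10.3 and 7.44 CPM across the foamy libraries (replicates 1 to 3) and 1.79, 5.17 and 2.83 CPM across the non-foamy ones (log2 fold change 1.54 ± 0.55 SE, adjusted p = 0.15 by edgeR). Acod1, which makes itaconate, an inhibitor of complex II, stood at 2.85, 0.0557 and 4.37 CPM across the foamy libraries (replicates 1 to 3) and 11.0, 8.26 and 9.80 CPM across the non-foamy ones (log2 fold change -1.99 ± 0.92 SE, adjusted p = 0.28 by edgeR). Atpif1, an inhibitor of the ATP synthase, averaged 266 ± 57.1 against 266 ± 40.3 CPM (foamy against non-foamy, mean ± SD, n = 3), with overlapping groups. Ndufa4l2 and Cox4i2, hypoxia-linked forms, had 3 and 35 counts over all 6 libraries, and Cox8b had 0.

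Of the list of nuclear copies of mitochondrial genes, Gm10221 held 93 counts but accounted for less than 5% of the windows of any member. Over the 6 libraries the copies on chromosome 2 held 326 counts (Gm13340, a copy of mt-Co1), 85 (Gm13341, of mt-Co2) and 3 (Gm13339, of mt-Nd2).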
